A study of Mus musculus with 12 samples.

Results

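The transcripts of 9 mouse genes of the inflammasome and necroptosis pathways were followed in colon tumours: Casp1, Casp4, Casp8, Ripk3, Mlkl, Aim2, Nlrp3, Pycard and Fas. They were chosen as genes of caspase, inflammasome and necroptosis function among the 24062 genes of the count table, with earlier results of these data known. All 9 passed the filter on low counts that left 15060 genes for testing. The tumours came from Balb/c mice whose hosts and transplanted bone marrow were each either wild type (WT) or St2-/-. St2 is the receptor of interleukin-33 and is encoded by Il1rl1. Hosts were irradiated with 2 doses of 5 Gy, reconstituted for 8 weeks and given 6 weekly injections of azoxymethane (AOM, 10 mg/kg), a colon carcinogen. The 4 groups, written as marrow => host, were WT => WT, St2-/- => WT, WT => St2-/- and St2-/- => St2-/-, with 3 tumours labelled as biological replicates in each. Every group was therefore irradiated, transplanted and treated with AOM, and no library came from untreated colon.

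Tumours were collected 13 or 14 weeks after AOM ended, from 11 males and 1 female, WT => St2-/- replicate 3. Animal numbers had 5 digits in all WT hosts and 3 digits in all St2-/- hosts, so a difference of cohort cannot be told apart from one of host genotype. Some radioresistant blood cells of the host may remain after irradiation in any such chimera. In whole-tumour RNA, fewer cells of a type and less RNA per cell cannot be told apart.

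Inflammasomes are protein platforms in which a sensor, such as the NOD-like receptor Nlrp3 or the DNA receptor Aim2, recruits the adaptor ASC (encoded by Pycard) and activates caspase-1. Caspase-1 cleaves the precursors of interleukin-1 beta and interleukin-18 and the pore-forming protein gasdermin D, which opens the plasma membrane in pyroptosis. Mouse Casp4, also known as caspase-11, is activated by intracellular lipopolysaccharide and cleaves gasdermin D directly. Necroptosis is a caspase-independent lytic death in which the kinase Ripk3 phosphorylates the pseudokinase Mlkl, which then damages the plasma membrane. Caspase-8, the initiator caspase downstream of the death receptor Fas, starts apoptosis and also restrains Ripk3 signalling. In the gut, epithelial and myeloid cells are both known to express members of these pathways.

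Gene counts summed to between 10293818 and 12962496 per library. Il1rl1, the targeted gene, had 36.5 to 275 CPM (counts scaled to library size with edgeR) in the 6 libraries of WT hosts and 7.3 to 25.0 CPM in the 6 of St2-/- hosts. The ranges did not overlap, and the gene fell by 3.42 on the log2 scale (SE 0.52, edgeR adjusted p = 0.00984). Reads in St2-/- hosts remain possible where part of the gene is intact, and the deleted part was not named in the labels. The labelled tissue was checked with 10 colon epithelium markers, among them Epcam, Krt8 and Vil1. Their score, the mean log2 CPM of the markers, was 7.98 to 9.55, and no marker was at 0 reads. WT => St2-/- replicate 2 stood apart, with the lowest epithelium score (7.98), the highest smooth muscle score (8.37) and the lowest neutrophil score (0.37) of the 12 libraries.

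Expressed per kilobase of the principal transcript, a scale that allows levels of different genes to be compared, Casp1 was the most abundant of the 9 in WT => WT tumours, at 115 CPM per kb. Ripk3 followed at 69.1, Casp8 at 62.7, Casp4 at 52.8, Mlkl at 42.6 and Aim2 at 39.2 CPM per kb. Pycard (12.2 CPM per kb) and Fas (11.9) were lower, and Nlrp3 was lowest at 1.17 CPM per kb. The Pycard value rests on a long transcript model of 3800 bases and is uncertain. That of Casp4 rests on a transcript of 1435 bases, whereas all its annotated exons together cover 3710 bases. Its place in this order is therefore uncertain too. Tumours of the AOM model thus contained transcripts of every step, from sensor to executioner, with the sensor Nlrp3 at the bottom of the range. The remaining levels are in CPM, and fold changes are log2 ratios from the edgeR model.

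In tumours of St2-/- hosts, compared with tumours of WT hosts and averaged over both marrows, the necroptosis genes Ripk3 and Mlkl and the inflammatory caspase gene Casp4 fell. These 3 of the 9 genes passed an edgeR adjusted p of 0.05, and none was called higher (0). Of all tested genes, 1.08% were called lower and 0.292% higher. All 9 log2 fold changes were below 0, as were 50.2% of those of all genes, and their median was -0.87, with a median over all genes of -0.0015. At an unadjusted p under 0.05, 7 of the 9 were lower, as were 10.8% of all genes. In 4 genes, Casp1, Casp4, Ripk3 and Mlkl, every St2-/- host library lay below every WT host library, which held for 1.71% of tested genes. Because the 9 were chosen with earlier results of these data known, their counts beside these shares are no independent evidence. The plot of levels by library shows the separation of these 4 genes.

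**Figure D1:**
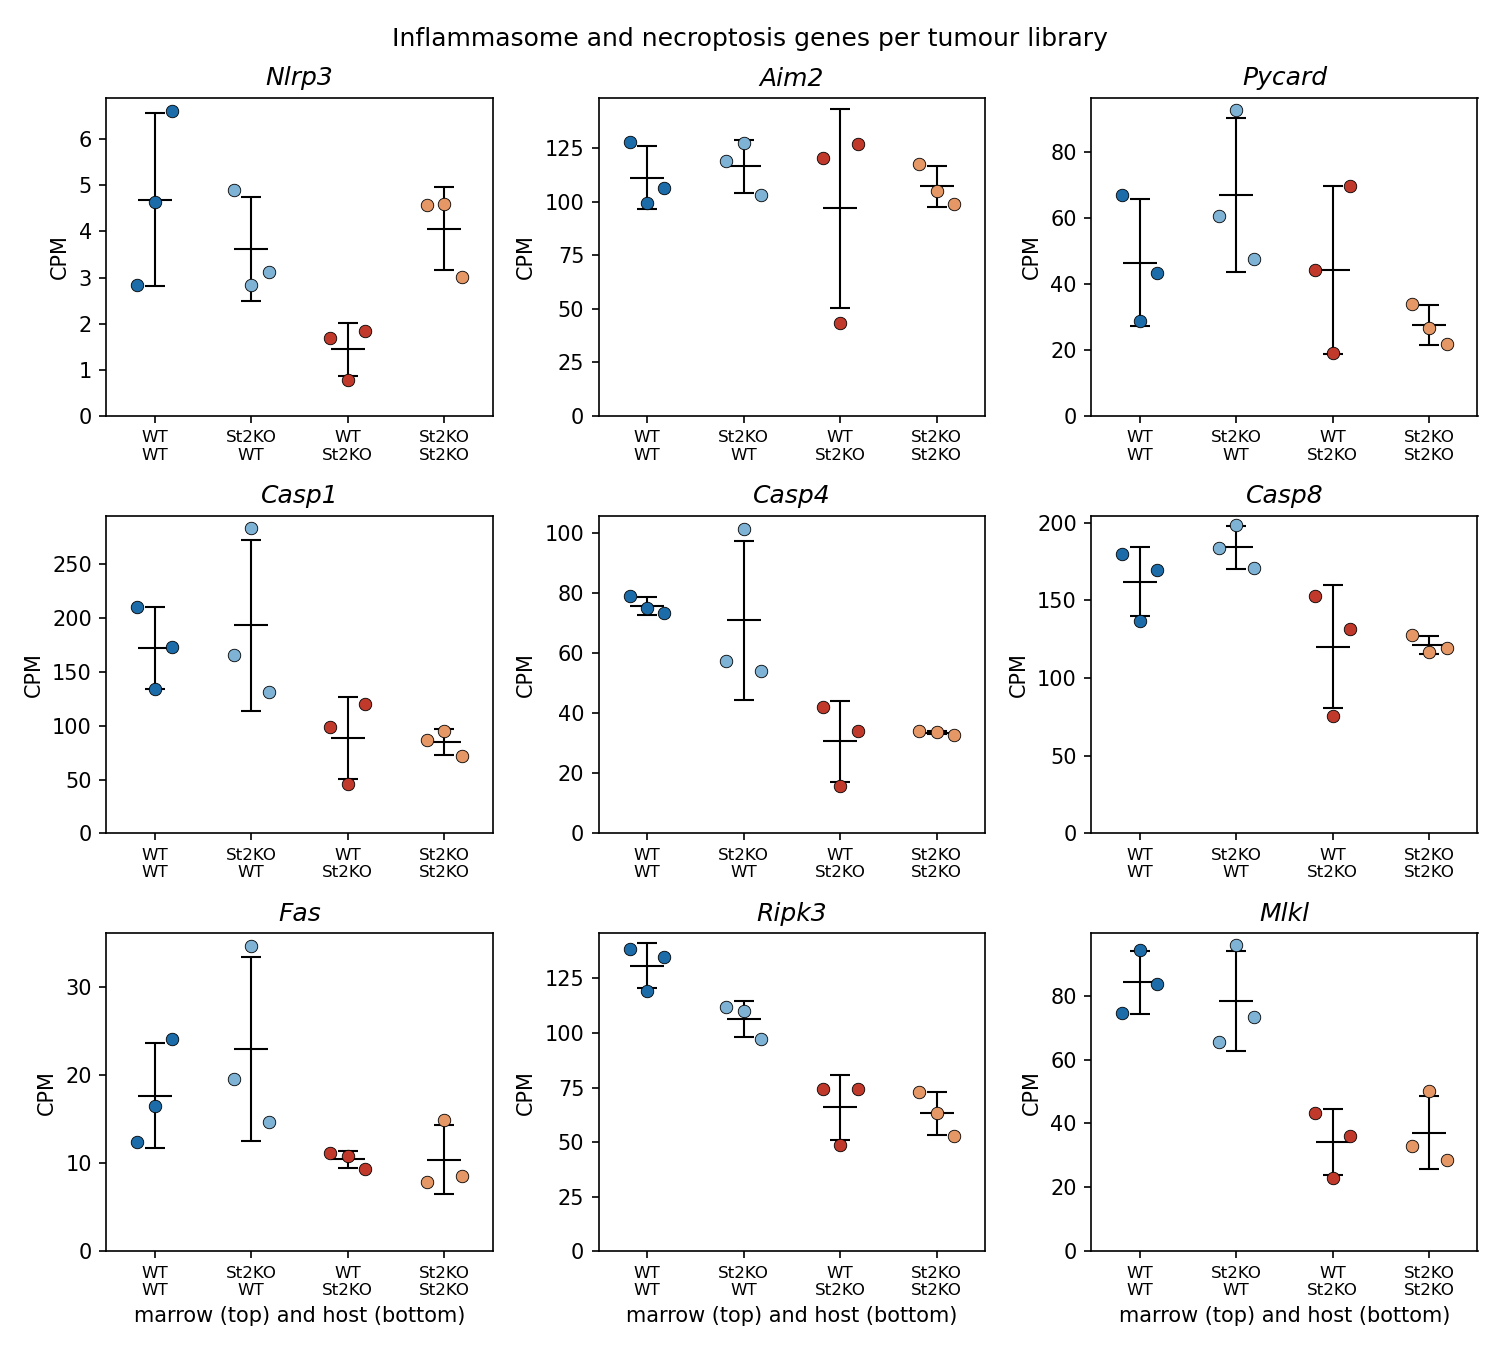
CPM (vertical axis, from 0) of the 9 genes in each of the 12 tumour libraries (points), by marrow and host; St2KO stands for St2-/-, and bars give the mean and SD of 3 libraries. Ripk3, Mlkl, Casp1 and Casp4 show no overlap between WT hosts (blue) and St2-/- hosts (red and orange), whereas Aim2 overlaps in most libraries.

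Ripk3, the kinase that starts necroptosis, had 138.5, 119 and 135 CPM in WT => WT tumours and 112, 110.2 and 97.1 CPM in St2-/- => WT tumours. It had 74.5, 48.9 and 74.5 CPM in WT => St2-/- tumours and 73.1, 63.4 and 53.0 CPM in St2-/- => St2-/- tumours. The lowest WT host library (97.1 CPM) was above the highest St2-/- host library (74.5 CPM), and the 3 WT => WT libraries were the highest of all. The mean was 119 ± 15.7 CPM (SD, n = 6) in WT hosts and 64.6 ± 11.4 CPM (SD, n = 6) in St2-/- hosts. Ripk3 fell by 0.87 on the log2 scale (SE 0.12, edgeR adjusted p = 0.00819), to 54.7% of the WT host level, and ranked 41 of 15060 genes by p. Its call held without any 1 of the 12 libraries (12 of 12, adjusted p 0.0125 to 0.0283).

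Mlkl, which encodes the pseudokinase that permeabilises the membrane, had 74.5, 94.3 and 83.7 CPM in WT => WT tumours and 65.6, 95.8 and 73.5 CPM in St2-/- => WT tumours. It had 43.2, 22.9 and 36.1 CPM in WT => St2-/- tumours and 32.8, 50.2 and 28.5 CPM in St2-/- => St2-/- tumours. No St2-/- host library reached the lowest WT host library, 65.6 CPM. Mlkl fell by 1.19 on the log2 scale (SE 0.19, edgeR adjusted p = 0.0124), from 81.2 ± 12.2 to 35.6 ± 9.92 CPM (SD, n = 6 each). Without St2-/- => St2-/- replicate 1 its adjusted p was 0.051, and without each of the other 11 libraries it remained called.

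Casp4 had 79.1, 75.0 and 73.3 CPM in WT => WT tumours and 57.4, 101.5 and 54.0 CPM in St2-/- => WT tumours. It had 42.0, 15.8 and 34.2 CPM in WT => St2-/- tumours and 34.0, 33.9 and 32.9 CPM in St2-/- => St2-/- tumours. St2-/- => WT replicate 2 was the highest library and WT => St2-/- replicate 2 the lowest, and the hosts did not overlap. Casp4 fell by 1.19 on the log2 scale (SE 0.23, edgeR adjusted p = 0.0331), from 73.4 ± 17.1 to 32.1 ± 8.65 CPM (SD, n = 6 each). This call was the least secure of the 3. It was lost in 8 of 12 omissions of 1 library (adjusted p up to 0.113), namely any WT => WT or St2-/- => St2-/- library, St2-/- => WT replicate 2 or WT => St2-/- replicate 3. With weeks after AOM as a covariate its adjusted p was 0.0628.

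Casp1, the caspase activated by inflammasomes, had 209.7, 134 and 173 CPM in WT => WT tumours and 165, 283 and 131 CPM in St2-/- => WT tumours. It had 99.2, 46.0 and 119.9 CPM in WT => St2-/- tumours and 87.2, 95.2 and 71.9 CPM in St2-/- => St2-/- tumours. Its mean was 183 ± 56.9 CPM in WT hosts and 86.6 ± 25.3 CPM in St2-/- hosts (SD, n = 6 each). The hosts did not overlap, but the spread among WT host libraries was wide. The log2 difference of -1.08 (SE 0.25) had an edgeR adjusted p of 0.0692 and was not called. Among the omissions of 1 library it was called only without St2-/- => WT replicate 3 (adjusted p = 0.0487), and it was also called by the DESeq2 Wald test (adjusted p = 0.00232) and by limma-voom (0.0119). Its 95% interval was -1.64 to -0.52. Casp1 and Casp4 are neighbours on chromosome 9 on the same strand, at chr9:5298517-5307265 and chr9:5308828-5336783 (GRCm38), with 1562 bases between them.

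Of the sensors, Nlrp3 was scarce, with 9 to 83 reads per library. It had 2.83, 4.64 and 6.61 CPM in WT => WT tumours and 4.91, 2.83 and 3.12 CPM in St2-/- => WT tumours. Levels were 1.69, 0.783 and 1.85 CPM in WT => St2-/- tumours and 4.59, 4.59 and 3.02 CPM in St2-/- => St2-/- tumours. The 3 WT => St2-/- libraries were the lowest of the 12, while St2-/- => St2-/- tumours lay within the range of WT hosts. The averaged host difference was -0.77 (SE 0.3, edgeR adjusted p = 0.201), with an interval of -1.44 to -0.1.

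Aim2, the cytosolic DNA sensor, differed least between hosts. It had 128, 99.4 and 107 CPM in WT => WT tumours and 119, 127 and 103 CPM in St2-/- => WT tumours. Levels were 120.5, 43.5 and 127 CPM in WT => St2-/- tumours and 118, 105 and 99.0 CPM in St2-/- => St2-/- tumours. All libraries except WT => St2-/- replicate 2 lay between 99.0 and 128 CPM. The host difference was -0.16 (SE 0.22, edgeR adjusted p = 0.722), with an interval of -0.64 to 0.33, and it was 0.02 without that library.

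Pycard, the adaptor, varied widely within groups. It had 67.1, 28.8 and 43.5 CPM in WT => WT tumours, 60.7, 92.8 and 47.5 CPM in St2-/- => WT tumours, 44.2, 19.0 and 69.9 CPM in WT => St2-/- tumours and 34.0, 26.8 and 21.8 CPM in St2-/- => St2-/- tumours. Groups overlapped, and the host difference was -0.68 (SE 0.32, edgeR adjusted p = 0.256), with an interval of -1.37 to 0.02. Exons of Pycard share 485 bases with the gene model Gm45205 on the opposite strand, 12.8% of its exon bases, and whether the counting used strand is not stated in the labels.

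Casp8 had 179.8, 137 and 169 CPM in WT => WT tumours and 184, 198 and 171 CPM in St2-/- => WT tumours. It had 152.5, 75.8 and 132 CPM in WT => St2-/- tumours and 127.5, 117 and 119 CPM in St2-/- => St2-/- tumours. All St2-/- host libraries except WT => St2-/- replicate 1 were below the lowest WT host library (5 of 6). The host difference was -0.52 (SE 0.15, edgeR adjusted p = 0.118) and was called only without WT => St2-/- replicate 1 among the omissions of 1 library (adjusted p = 0.0498).

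Fas, the death receptor, had 12.4, 16.5 and 24.1 CPM in WT => WT tumours and 19.6, 34.7 and 14.7 CPM in St2-/- => WT tumours. It had 11.2, 10.9 and 9.32 CPM in WT => St2-/- tumours and 7.87, 14.9 and 8.5 CPM in St2-/- => St2-/- tumours. St2-/- => St2-/- replicate 2 was the only St2-/- host library above the lowest WT host library. The host difference was -0.95 (SE 0.26, edgeR adjusted p = 0.102), with an interval of -1.52 to -0.38. Casp8 and Fas, the genes of the extrinsic apoptosis route among the 9, did not pass the adjusted test of edgeR but were called by DESeq2 and by limma-voom.

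The calls changed when marker scores entered the model, when libraries were removed and with the test used. With the smooth muscle score as a covariate the same 3 genes were called, and 332 of all genes were, against 206 without it. With the macrophage and monocyte score none of the 9 was called (0, with 7 of all genes; Ripk3 -0.83 with edgeR adjusted p = 0.116). With the colon epithelium score, an alternative chosen after seeing the data, none was called either (0, with 9 of all genes). Under that covariate the difference was -0.63 for Ripk3 (adjusted p = 0.0929), -0.93 for Mlkl (0.12), -0.69 for Casp4 (0.16) and -0.44 for Casp1 (0.355). With WT => St2-/- replicates 2 and 3 both removed, none was called (0, with 8 of all genes), at -0.78 for Ripk3 (adjusted p = 0.106) and -1.02 for Mlkl (0.128). These 3 settings therefore lost most calls over all genes, as well as those of the 9. Without WT => St2-/- replicate 2 alone, the same 3 genes were called, with Ripk3 at -0.78 (adjusted p = 0.014). The DESeq2 Wald test called 6 of the 9 lower, adding Casp1, Casp8 and Fas, where it called 4.56% of its genes lower, and limma-voom called 7, adding also Nlrp3, with 7.25% of genes lower.

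The promoters of the genes that fell, with Casp1 and Fas for comparison, are printed as the 250 bases before the RefSeq start site (GRCm38.p6), 5' to 3' on the gene's strand. They were searched on both strands for a gamma-activated site (GAS, TTCNNNGAA) and an interferon-stimulated response element core (ISRE, GAAA, any 2 bases and GAAA again), because transcripts of interferon signalling were lower in the same hosts. Capitals mark a match. The windows are chr14:55788858-55789107 (minus strand) for Ripk3, chr8:111338206-111338455 (minus strand) for Mlkl, chr9:5308599-5308848 for Casp4, the first of 2 start sites, chr9:5298267-5298516 for Casp1 and chr19:34290409-34290658 for Fas.
Ripk3: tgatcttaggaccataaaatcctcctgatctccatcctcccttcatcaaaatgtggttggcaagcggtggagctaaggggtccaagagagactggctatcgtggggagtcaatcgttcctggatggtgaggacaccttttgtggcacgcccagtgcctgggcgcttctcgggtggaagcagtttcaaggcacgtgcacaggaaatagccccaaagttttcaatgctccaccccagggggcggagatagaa
Mlkl: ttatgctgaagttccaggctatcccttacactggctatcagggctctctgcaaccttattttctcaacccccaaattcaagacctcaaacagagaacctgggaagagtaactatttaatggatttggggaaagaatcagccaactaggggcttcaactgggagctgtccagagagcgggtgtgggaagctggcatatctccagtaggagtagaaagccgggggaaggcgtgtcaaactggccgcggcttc
Casp4: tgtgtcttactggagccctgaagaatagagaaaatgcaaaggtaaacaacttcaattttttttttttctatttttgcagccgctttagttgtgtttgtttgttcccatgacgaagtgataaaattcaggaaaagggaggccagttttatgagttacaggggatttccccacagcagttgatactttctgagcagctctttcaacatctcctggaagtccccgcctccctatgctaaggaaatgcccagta
Casp1: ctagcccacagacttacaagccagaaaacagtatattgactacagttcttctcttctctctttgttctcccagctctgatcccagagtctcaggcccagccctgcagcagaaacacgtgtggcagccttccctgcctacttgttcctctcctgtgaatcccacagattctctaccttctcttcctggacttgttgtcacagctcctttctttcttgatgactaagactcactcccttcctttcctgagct
Fas: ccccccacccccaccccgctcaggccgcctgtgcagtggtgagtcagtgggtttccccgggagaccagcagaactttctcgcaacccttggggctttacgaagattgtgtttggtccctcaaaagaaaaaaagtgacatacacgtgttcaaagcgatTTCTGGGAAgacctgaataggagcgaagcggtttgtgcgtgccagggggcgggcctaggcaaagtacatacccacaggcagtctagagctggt
Among the 9 genes, all of which matched the RefSeq table, Fas alone held a match, 1 GAS that starts 93 bases before the start site. Of 32851 promoters of the same length, 7.02% held the GAS letters and 2.98% the ISRE core. The absence of these letters from the other windows says nothing about binding elsewhere. The reference is C57BL/6J, not Balb/c.

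Within each marrow genotype the host comparison had 3 libraries a side, and neither shared a library with the other. With WT marrow, 0 of the 9 were called (0.159% of all genes were), and 9 of 9 differences were below 0 (49.1% of all genes were), with a median of -0.96. The DESeq2 Wald test called 4 of the 9 lower and limma-voom 3, with 2.86% and 1.33% of all genes. The differences were -0.99 for Ripk3 (SE 0.18, edgeR adjusted p = 0.0554), -1.3 for Mlkl (SE 0.27, 0.0757), -1.3 for Casp4 (SE 0.32, 0.113) and -0.96 for Casp1 (SE 0.36, 0.229). At an unadjusted p under 0.05, 5 of the 9 were lower, as were 8.33% of all genes. Libraries of 6 genes did not overlap, namely Casp1, Casp4, Ripk3, Mlkl, Nlrp3 and Fas, which held for 9.82% of all genes in this direction.

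With St2-/- marrow, 0 of the 9 were called (0.0598% of all genes were), and 8 of 9 differences were below 0 (49.6% of all genes were), with a median of -1.08. DESeq2 called 2 lower and limma-voom 7, with 1.38% and 7.7% of all genes. Ripk3 differed by -0.75 (SE 0.18, edgeR adjusted p = 0.208), Mlkl by -1.08 (SE 0.27, 0.24), Casp4 by -1.08 (SE 0.32, 0.319) and Casp1 by -1.19 (SE 0.36, 0.323). At an unadjusted p under 0.05, 7 of the 9 were lower, as were 7.36% of all genes. Again 6 genes did not overlap, now Casp1, Casp4, Casp8, Ripk3, Mlkl and Pycard, beside 12.7% of all genes. Ripk3, Mlkl, Casp4 and Casp1 were thus lower in St2-/- hosts under either marrow, each by amounts whose standard errors overlap in the plot of host differences.

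**Figure D2:**
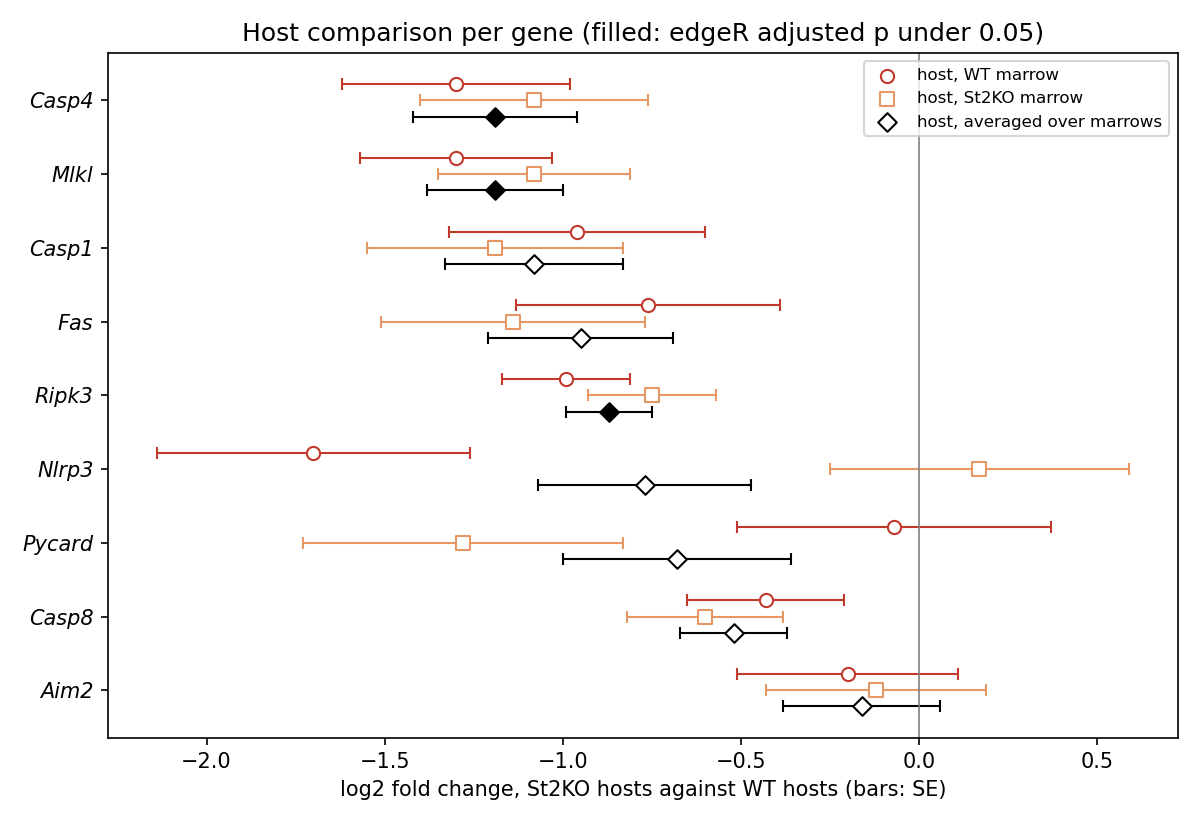
Log2 fold change of each gene (horizontal axis) in St2-/- (St2KO) against WT hosts with WT marrow (circles), with St2-/- marrow (squares) and averaged (diamonds); bars give the SE and filled symbols an edgeR adjusted p under 0.05. Ripk3, Mlkl and Casp4 are filled in the average, at -0.87, -1.19 and -1.19, and Nlrp3 and Pycard show the widest gaps between marrows.

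Nlrp3 and Pycard had the largest differences between the 2 host effects. Nlrp3 differed between hosts by -1.7 with WT marrow (SE 0.44, interval -2.67 to -0.72) and by 0.17 with St2-/- marrow (SE 0.42, interval -0.77 to 1.1). The test of the difference between these effects gave 1.86 (SE 0.61, interval 0.52 to 3.21), with an unadjusted p of 0.0111 and an edgeR adjusted p of 0.559, which did not pass. Neutrophil markers had medians in the same direction, at -2.31 with WT marrow and -0.01 with St2-/- marrow (interaction 2.13). Those of macrophages and monocytes were -1.11 and -0.01 (interaction 1.03). Interaction medians of T and NK cell and of dendritic cell markers were 0.79 and 0.51. Mast cell markers went the other way, at 3.09 and 0.69 (interaction -2.17). So did B and plasma cell markers, at 0.53 and -0.15 (interaction -0.66). The part of these cells in the Nlrp3 values was not tested. Pycard ran the other way, at -0.07 with WT marrow (SE 0.44) and -1.28 with St2-/- marrow (SE 0.45), and the difference of -1.22 (SE 0.63) had an edgeR adjusted p of 0.672. None of the 9 was called in this interaction (0 in edgeR, DESeq2 and limma-voom), and none of all tested genes was in edgeR (0%). Only Nlrp3 had an unadjusted p under 0.05, 1 of 9 beside 7.6% of all genes.

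The marrow genotype was compared next, which asks whether Il1rl1 in blood-derived cells is associated with these transcripts. Il1rl1 itself differed by -0.42 between marrows averaged over hosts (SE 0.48, edgeR adjusted p = 0.999). Its level in whole tumours therefore does not check the marrow labels. None of the 9 genes was called averaged over hosts (0, with 0% of all genes), and their differences, St2-/- minus WT marrow, ran from -0.18 for Ripk3 to 0.56 for Nlrp3, each with an edgeR adjusted p of 0.999. Of the 9, 0 had an unadjusted p under 0.05, beside 2.76% of all genes, and DESeq2 and limma-voom also called 0 in each marrow comparison. The intervals show how large a difference these data leave possible. Ripk3 lay between -0.45 and 0.09, Mlkl between -0.4 and 0.42, Casp4 between -0.48 and 0.51, and Casp1 between -0.5 and 0.61. In WT hosts the differences were -0.37 for Nlrp3 to 0.53 for Pycard, and none was called (0, with 0% of all genes; lowest edgeR adjusted p 0.815, for Ripk3). There too, 0 had an unadjusted p under 0.05, beside 6.04% of all genes.

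In St2-/- hosts none was called (0, with 0% of all genes), and Nlrp3 had the lowest unadjusted p of the 9. It had 0.783 to 1.85 CPM with WT marrow and 3.02 to 4.59 CPM with St2-/- marrow. The difference was 1.49 (SE 0.44, interval 0.52 to 2.46), with an unadjusted p of 0.00631, rank 48 of 15060, and an edgeR adjusted p of 0.995. It was the only 1 of the 9 with an unadjusted p under 0.05 there, as 4.05% of all genes had. The neutrophil score of these libraries was 0.37 to 3.01 with WT marrow and 2.16 to 4.06 with St2-/- marrow, and its part in the Nlrp3 difference was not tested.

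Between St2-/- => St2-/- and WT => WT tumours, which share libraries with the comparisons above, none of the 9 was called (0, with 0.0266% of all genes). DESeq2 called 3 lower and limma-voom 6, with 1.99% and 6.39% of all genes. All 9 differences were below 0, as were 51.4% of all genes. They were -1.05 for Ripk3 (SE 0.18, edgeR adjusted p = 0.11, rank 13), -1.18 for Mlkl (SE 0.27, 0.18), -1.17 for Casp4 (SE 0.32, 0.206) and -1.02 for Casp1 (SE 0.36, 0.268). Aim2, at -0.05, and Nlrp3, at -0.21, differed least. At an unadjusted p under 0.05, 4 of the 9 were lower, as were 7.28% of all genes.

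The 9 transcripts varied together across the 12 libraries. All 36 pairs had a positive Pearson correlation of log2 CPM, from 0.14 to 0.95 with a median of 0.7, given as a description since pairs share libraries and host groups. Casp1 and Casp4 were most alike, at 0.95, and at 0.89 after group means were removed. Within groups, Fas had correlations of -0.04 with Aim2, 0.03 with Casp8, 0.05 with Ripk3 and Pycard, 0.23 with Nlrp3, 0.32 with Casp4, 0.33 with Casp1 and 0.54 with Mlkl. Those of Nlrp3 with the 7 remaining genes were 0.29 to 0.63.

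Most of the genes also followed the colon epithelium score, which was 8.67 to 9.55 in WT hosts and 7.98 to 9.15 in St2-/- hosts. None of its 10 markers was called between hosts by edgeR (0, with 4 lower at an unadjusted p under 0.05, 1 by DESeq2 and 3 by limma-voom), and all 10 were below 0, with a median of -0.38. Of all genes, 10.8% were lower at that unadjusted p, and 4.56% and 7.25% were called lower by DESeq2 and limma-voom. For 7 of the 9 genes the epithelium score had the most positive correlation of the 12 marker scores, for Pycard tied with the goblet cell score at 0.9. All 9 genes had negative correlations with the mast cell score, from -0.85 to -0.55. Of the 7, Casp4 (-0.85 against 0.83) and Mlkl (-0.75 against 0.73) had a larger absolute correlation with the mast cell score than with the epithelium score. Casp8 followed it most closely, with r = 0.94 and Spearman's rho = 0.94, and r = 0.88 without the 2 libraries farthest from the median score, WT => St2-/- replicate 2 and St2-/- => WT replicate 2. Casp1 had r = 0.91 (rho 0.87, 0.78 without those libraries) and Pycard r = 0.9 (rho 0.87, 0.81 without them). These values describe 12 libraries and carry no p.

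In the 6 WT host libraries r with the epithelium score was 0 for Ripk3 and -0.16 for Mlkl, and in the 6 St2-/- host libraries, which include WT => St2-/- replicate 2, it was 0.81 and 0.78. The difference between hosts was not tested. Over all libraries but the 2 farthest from the median score, r was 0.64 for Ripk3 and 0.5 for Mlkl. For Casp8 it was 0.92 in each host, and for Aim2 0.96 and 0.82. Over the overlapping score range, 8.67 to 9.15, the 2 St2-/- host libraries had 36.1 and 43.2 CPM of Mlkl. The WT host libraries in that range had 94.3, 83.7 and 73.5 CPM. Beyond the covariate values given above, the part of epithelial content in these values was not tested.

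Nlrp3 alone followed the neutrophil score most closely, with r = 0.89 (rho 0.85, 0.68 without WT => St2-/- replicate 2 and WT => WT replicate 3, the 2 libraries farthest from the median). Fas was closest to the T and NK cell score, with r = 0.67, and 0.37 within groups. Macrophage, neutrophil and T and NK cell scores had lower means in St2-/- hosts, with overlapping ranges. The B and plasma cell score had means of 4.23 in WT hosts and 4.35 in St2-/- hosts. Differences between hosts in the scores themselves were not tested. The macrophage and monocyte score was 4.17 to 5.22 in WT hosts and 3.36 to 4.62 in St2-/- hosts, that of neutrophils 2.43 to 5.03 and 0.37 to 4.06, and that of T and NK cells 1.84 to 3.29 and -0.2 to 2.02. None of the 14 macrophage, 5 neutrophil or 8 T and NK cell markers tested was called by edgeR (0). At an unadjusted p under 0.05, 4, 3 and 3 of them were lower, beside 10.8% of all genes. Their median differences were -0.57, -1.07 and -0.66. DESeq2 called 0, 0 and 3 lower and limma-voom 1, 1 and 4, beside 4.56% and 7.25% of all genes. None of these markers was at 0 reads throughout either host. Among the other lists, 1 of 6 dendritic cell markers was called lower by edgeR, beside 1.08% of all genes (median -0.96). At an unadjusted p under 0.05, 4 of the dendritic cell markers were lower, and DESeq2 and limma-voom each called 3 lower. Mast cell markers had a median of 1.85, 6 of 7 higher at an unadjusted p under 0.05 but 0 called by edgeR (4 higher by DESeq2, 0 by limma-voom). Medians of the goblet cell, fibroblast, smooth muscle, B and plasma cell, neuron and glia, and endothelium lists were -0.8, -0.19, 0.08, 0.19, 0.32 and 0.53, with 0 called by edgeR. Averages near 0 for the smooth muscle and the neuron and glia lists came from opposite values in the 2 marrows. The smooth muscle median was 2.38 with WT marrow and -1.98 with St2-/- marrow (interaction -4.36), and that of neuron and glia 2.8 and -2.47 (interaction -5.3), with 0 called by edgeR in each. At an unadjusted p under 0.05, 8 of 10 smooth muscle markers were higher with WT marrow. With St2-/- marrow 6 were lower at that p, beside 7.36% of all genes. The share of all genes higher at that p was not computed, here or for mast cells. DESeq2 called 4 smooth muscle and 6 neuron and glia markers higher with WT marrow, with 746 of all genes in either direction. In the interaction it called 6 and 5 lower, with 93 of all genes. With St2-/- marrow limma-voom called 6 and 3 lower, with 7.7% of all genes, and DESeq2 1 and 0, with 1.38%. Beyond the covariate values given above, the part of cell composition in the host differences was not tested.

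**Figure D3:**
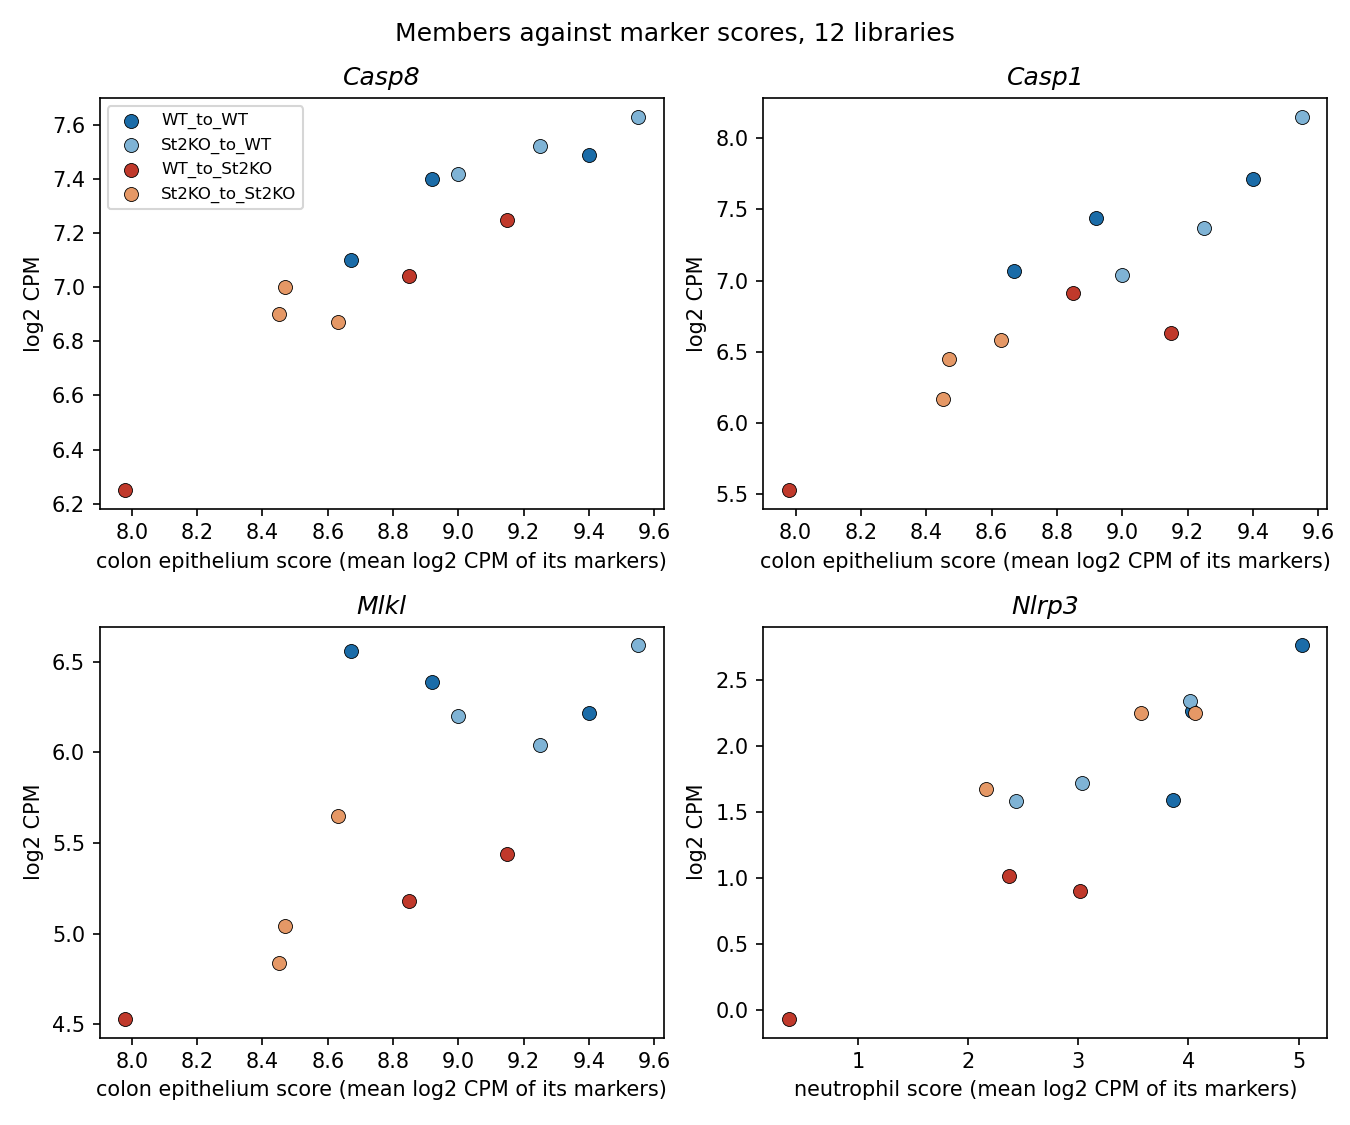
Log2 CPM (vertical axes) of Casp8, Casp1 and Mlkl against the colon epithelium score, and of Nlrp3 against the neutrophil score (horizontal axes, mean log2 CPM of the markers), in the 12 libraries coloured by group (marrow_to_host). Casp8 and Casp1 rise along the epithelium score across all groups. Levels of Casp1 and Mlkl do not overlap between WT and St2-/- hosts, and WT_to_St2KO replicate 2 is the lowest point in every panel.

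The genes most like each member over the 12 libraries, by Pearson correlation of log2 CPM among all tested genes outside the 9, included Tmem106a (0.968) and Got1 (0.965) for Casp1. For Casp4 they were Erap1 (0.977), Myd88 (0.965) and Olfr56 (0.965). Ripk3 was most like Ly6c1 (0.959), Coq5 (0.953) and Ehd4 (0.952). Mlkl was most like H2-Q4 (0.985), Trafd1 (0.981) and AW112010 (0.977). H2-Q4 and Ly6c1 belong to families of near-identical genes, so their counts are less certain. For Casp8 the genes were Plekhm1 (0.977), Car13 (0.974) and Sgpp2 (0.974), for Aim2 Mbnl3 (0.952), Wdr76 (0.95) and Acpp (0.937), and for Pycard Ppif (0.975), Ppa2 (0.971) and Acat1 (0.97). Nlrp3 was most like Clec4e (0.977), Csf3r (0.977) and Clec4d (0.971), and Fas most like Psme2 (0.934), Ifng (0.921) and Socs1 (0.918).

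The wider pathways were described with 7 lists of other genes, compared between hosts averaged over marrows. Over all tested genes, edgeR called 1.08% lower and 0.292% higher, DESeq2 4.56% lower and limma-voom 7.25% lower. At an unadjusted p under 0.05 in edgeR, 10.8% of all genes were lower. Of 10 further inflammasome sensors tested, 1 fell and 0 rose in edgeR (2 and 3 lower by DESeq2 and limma-voom, 0 higher), with a median of -0.61. The gene that fell was Ifi204, a DNA sensor related to Aim2, at 18.9 ± 8.34 CPM in WT hosts and 6.83 ± 1.8 CPM in St2-/- hosts (SD, n = 6 each; -1.48, SE 0.3, edgeR adjusted p = 0.0399). Mefv, which encodes pyrin, differed by -1.19 (edgeR adjusted p = 0.0824) and Nlrp6 by -1.18 (0.189). Nlrp1a, with 0 reads, and Nlrp12, with 64 reads in all, were not tested. Of the 6 pyroptosis substrates and effectors, 0 were called by edgeR (2 lower at an unadjusted p under 0.05, and 1 by DESeq2 and 2 by limma-voom), with a median of -0.38. Gsdmd, the pore-former cut by caspase-1 and Casp4, had 370.1 ± 22.8 CPM in WT hosts and 226 ± 57.9 CPM in St2-/- hosts (SD, n = 6 each), a difference of -0.71 (SE 0.16, edgeR adjusted p = 0.0562). Il1b, a caspase-1 substrate, differed by -0.68 (edgeR adjusted p = 0.247) and Ninj1, the membrane rupture protein, by -0.08 (0.748).

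Among 11 inflammasome regulators, 5 fell and 0 rose in edgeR (5 and 6 lower by DESeq2 and limma-voom, 0 higher), with a median of -0.83. The 5 were Gbp2, Gbp5, Gm12250 (also called Irgb10), Trim30a and Il18bp, which encodes the interleukin-18 antagonist. Il18bp fell by 1.94 (SE 0.22, edgeR adjusted p = 0.00325), Gbp2 by 3.03 (SE 0.36, 0.00368), Gbp5 by 2.91 (SE 0.38, 0.00587), Gm12250 by 3.3 (SE 0.45, 0.00737) and Trim30a by 1.45 (SE 0.18, 0.00473). The guanylate-binding proteins and Irgb10 are known to open bacterial membranes to inflammasome sensing, while Trim30a and Il18bp are known as restraints, so the genes that fell include activators and inhibitors.

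Of 22 genes of the necrosome and TNF receptor complex, 2 fell and 0 rose in edgeR (4 lower and 1 higher by DESeq2, 6 lower and 1 higher by limma-voom), with a median of -0.17. Zbp1, a nucleic acid sensor that engages Ripk3, fell by 2.23 (SE 0.33, edgeR adjusted p = 0.00926), from 221 ± 71.4 to 47.4 ± 20.9 CPM (SD, n = 6 each). Tnfrsf1a, TNF receptor 1, fell by 0.8 (SE 0.12, edgeR adjusted p = 0.00875), from 182 ± 22.6 to 104 ± 13.1 CPM. Rnf31, a subunit of the linear ubiquitin ligase, differed by -0.46 (edgeR adjusted p = 0.0692) and Ikbkb, an IKK kinase, by 0.3 (0.0874). Of 11 death receptors and ligands, 0 were called by edgeR (5 lower and 1 higher at an unadjusted p under 0.05, and as many by DESeq2 and by limma-voom), with a median of -0.14. Tnf differed by -1.01 (SE 0.22, edgeR adjusted p = 0.0502) and Tnfsf10, which encodes TRAIL, by -1.44 (SE 0.33, 0.0636). Of 21 genes of the apoptosis core, 0 were called by edgeR (5 lower and 2 higher at an unadjusted p under 0.05, 4 lower by DESeq2, and 5 lower and 1 higher by limma-voom), with a median of -0.00025. Bak1, a pore-former of the mitochondrial outer membrane, differed by -0.63 (edgeR adjusted p = 0.06) and Bid, a substrate of caspase-8, by -0.43 (0.101).

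Of 14 interferon signalling genes, 6 fell and 0 rose in edgeR (9 and 10 lower by DESeq2 and limma-voom, 0 higher), with a median of -0.92. Irf1 fell by 1.76 (SE 0.21, edgeR adjusted p = 0.00331), Stat2 by 1.15 (SE 0.13, 0.00325), Socs1 by 1.73 (SE 0.29, 0.0196) and Irf7 by 1.29 (SE 0.23, 0.0246). Ifng, the interferon gamma gene, was near the detection limit, at 0.515 to 4.12 CPM in WT hosts and 0 to 0.158 CPM in St2-/- hosts (edgeR adjusted p = 0.0124). The lists were chosen with earlier results of these data known, so their direction is no independent evidence. The plot of pathway genes shows the 9 genes beside these lists.

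**Figure D4:**
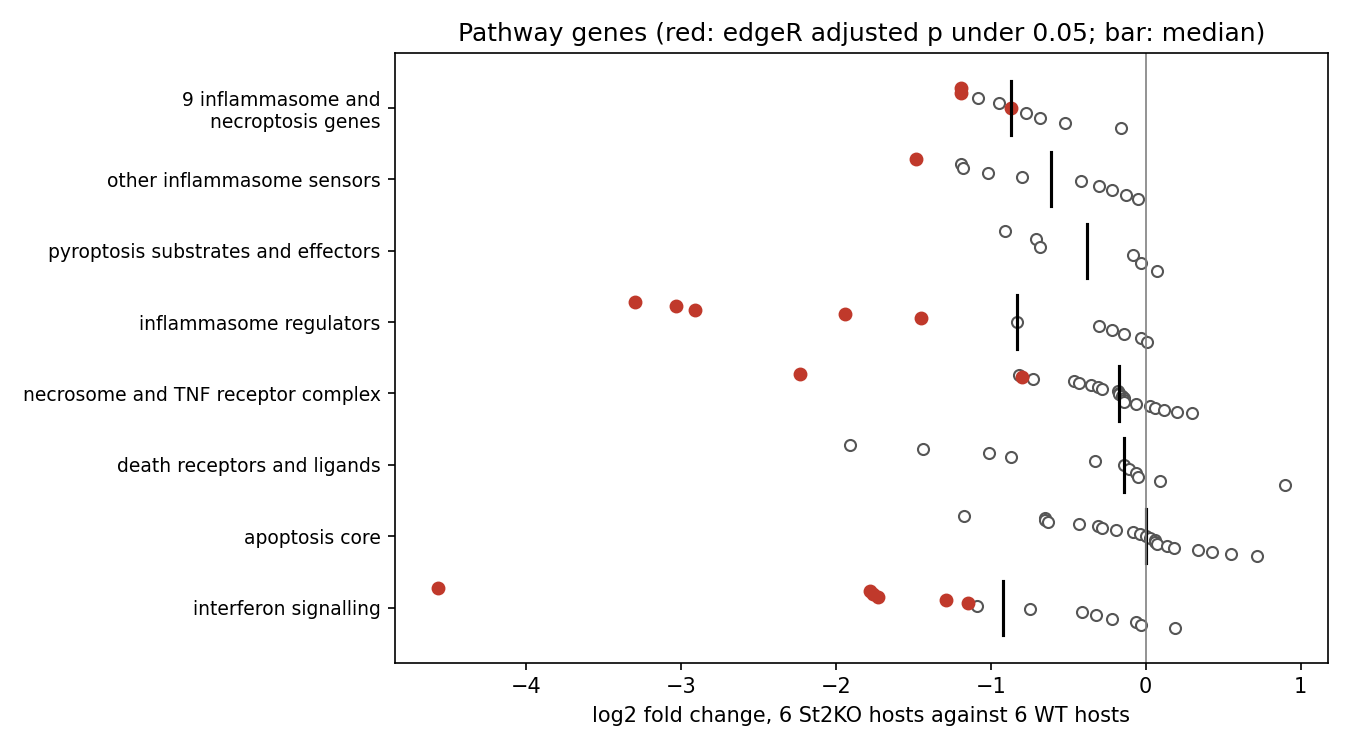
Log2 fold change (horizontal axis) of every tested gene of the 9 and of 7 pathway lists, 6 St2-/- (St2KO) hosts against 6 WT hosts; red points passed an edgeR adjusted p of 0.05, and bars mark list medians. Called genes lie below 0 in each list that has any, and the apoptosis core is centred near 0 (median -0.00025).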

How the data were processed

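Frozen tumour RNA of 12 mice was sequenced from TruSeq libraries as single-end reads of 50 bases, per the labels' protocols. The submitters' processing notes name TopHat, Bowtie2 and the build GRCm38 (mm10). Versions, counter, annotation and strand are not given in the sources used here. Raw read counts per gene were deposited by the authors, with 5 entries that name no gene, which held 49.8% to 59.6% of a library's total and were left out. Non-unique alignments took 36.7% to 48.9%.

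Counts were analysed with edgeR 4.0.16 in R 4.3.3: filterByExpr with a minimum count of 10 (15060 genes kept, 9002 removed), TMM, and a robust quasi-likelihood fit with 1 coefficient for each of 4 groups over all 12 libraries. The 8 contrasts were tested two-sided with Benjamini-Hochberg adjustment over all genes and called under 0.05. Marker scores used log2 CPM with a prior count of 2. Alternatives included DESeq2 1.42.0, limma 3.58.1 (voom), other filters, covariates and omitted libraries. The fit was also tested on simulated data. Intervals are 95%. Named genes were the 9, Il1rl1, up to 4 genes per list by smallest p plus all called, and 3 genes most like each of the 9; some of these are not reported here. The 9 genes and all lists were chosen with earlier results of these data known. Coordinates came from GENCODE M21 and promoters from RefSeq. Figures were made with Python 3.11.15.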

Additional observations from a re-analysis of the deposited data

How the results depend on the processing

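Between hosts averaged over marrows, where edgeR called 3 of the 9 genes, the count was 6 with the DESeq2 Wald test, 7 with limma-voom, and 0 with the macrophage and monocyte score, with the colon epithelium score (chosen after seeing the data) and with WT => St2-/- replicates 2 and 3 removed. It was 2 with the replicate block, which lost Casp4 (adjusted p = 0.0744) and called 0.777% of all genes lower, and 2 with weeks after AOM as a covariate. With 1 library left out it was 1 to 4, the lowest without St2-/- => St2-/- replicate 1, where Ripk3 alone was called. With WT marrow, where 0 were called, the count was 4 with DESeq2, 3 with limma-voom, 1 with the colon epithelium score and 0 to 1 with 1 library left out. With St2-/- marrow it was 2 with DESeq2 and 7 with limma-voom. Between St2-/- => St2-/- and WT => WT it was 3 with DESeq2, 6 with limma-voom, 1 with only the groups compared and 0 to 1 with 1 library left out. The cause of these changes was not tested.

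Over 23 alternatives to the averaged host comparison, Ripk3 was called in 20, Mlkl in 19, Casp4 in 10 and Casp1 in 3, and all 4 stayed below 0. Over the host comparisons, averaged or within a marrow, signs changed in Aim2, Pycard and Nlrp3, and no value with a changed sign was called. Averaged over marrows, Nlrp3 stayed below 0 in all 23. Aim2 averaged over marrows was 0.34 with the colon epithelium score and -0.28 to 0.02 with 1 library left out, and Pycard was 0.13 with that score. With WT marrow, Aim2 was 0.01 with limma-voom, 0.05 with the smooth muscle score, 0.02 with the colon epithelium score and 0.12 with both replicates removed, and Pycard was 0.28, 0.09 and 0.38 under the first 3 of these and 0.21 with the macrophage score. With 1 library left out, they were -0.44 to 0.15 and -0.56 to 0.3. With St2-/- marrow, Aim2 was 0.65 with the colon epithelium score, and Nlrp3 was -0.17 with limma-voom and -0.01 with weeks after AOM. In the marrow comparisons 73 of 639 such values changed sign, none of them called (0).

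Same-numbered libraries did not deviate together. Correlations of their deviations from group means were -0.44 to 0.31 over 18 pairs, 5 above 0.1, and 3 of 12 libraries correlated best with their own number. The numbers are therefore not treated as pairs. Nlrp3, with 9 to 83 reads per library, is the gene most limited by depth.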
